A study of Mus musculus with 20 samples.

Results

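Genes of the distal convoluted tubule were followed through bulk RNA sequencing of mouse kidney tumors and normal kidneys. The 10 genes were chosen by name for their place in this segment, and they are Slc12a3, Calb1, Pvalb, Trpm6, Trpv5, Slc8a1, Wnk1, Wnk4, Klhl3 and Stk39. All 10 were found among the 54532 genes of the count table. The libraries come from the Cre-less AAV model, 10 of them from tumors and 10 from normal kidney, in C57BL/6 LSL-Cas9/+; Pax8 Cre/+ mice. In these mice Pax8-driven Cre removes a stop cassette, so that Cas9 is made in cells that have expressed Pax8, which include tubule cells of the whole nephron, the distal convoluted tubule among them. An adeno-associated virus (AAV) without Cre, injected into the kidney of young adult mice of both sexes, supplied sgRNAs against Keap1, Pbrm1, Vhl and Tsc1. Normal kidney regions were taken from the same mice as the tumors, so both groups share the Cas9 and Cre alleles and the injection. The labels give neither the sex of each mouse nor its age at harvest, and they do not say whether a normal region came from the injected kidney.

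The distal convoluted tubule reabsorbs sodium chloride through the thiazide-sensitive cotransporter NCC, the product of Slc12a3. WNK kinases (Wnk1, Wnk4) activate the kinase SPAK (Stk39), which phosphorylates NCC, and the adaptor KLHL3 with the ligase CUL3 marks WNK kinases for degradation. The same segment sets the final urinary magnesium through the channel TRPM6. Its late part and the connecting tubule reabsorb calcium, which enters through TRPV5, crosses the cell bound to calbindin-D28k (Calb1) and leaves through the sodium-calcium exchanger NCX1 (Slc8a1). Parvalbumin (Pvalb) is a calcium-binding protein that marks the early part of the segment in mice.

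Total counts ranged from 14737516 to 26679704 in normal kidneys and from 18447394 to 24902973 in tumors. Of the 4 genes the sgRNAs target, Vhl (log2 fold change -0.49, adjusted p = 0.00179) and Tsc1 (-0.61, adjusted p = 0.00871) were lower in tumors, Keap1 was higher (0.83, adjusted p = 1.30e-07) and Pbrm1 did not pass the test (-0.28, adjusted p = 0.23), all by edgeR's quasi-likelihood test. Small insertions and deletions at a cut site need not lower the RNA, so these levels are no direct check of editing. Levels are given as CPM, the counts of a gene per 1000000 counts of its library after scaling, and several libraries stood apart. Normal kidneys 5, 7 and 8 had 2538, 3302 and 1765 CPM of the tubule injury gene Lcn2, against 9.77 to 232 CPM in the other 7. Normal kidney 9 had a scaling factor of 0.749, the lowest of all libraries, and 1132 CPM of summed principal cell markers against 161 to 562 CPM in the other normal kidneys. Its summed podocyte markers reached 121 CPM against 611 to 982 CPM. Tumor 7 held 3686 CPM of summed fibroblast markers against 85.8 to 394 CPM in the other tumors.

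Every member that could be tested was lower in tumors. Of the 10 members, 9 passed the filter on low counts, and 9 were lower and 0 higher by edgeR's quasi-likelihood test at an adjusted p under 0.05, where 23.8% of all 15354 genes tested were lower and 23.6% were higher. Members higher at an unadjusted p under 0.05 also numbered 0, and DESeq2 and limma-voom called 0 members higher. The median log2 fold change (tumor minus normal kidney) of the 9 tested members was -3.28, against -0.02 over all genes tested. For 4 of the 9, all 10 tumors lay below all 10 normal kidneys, a separation found for 4.74% of the genes tested. Since the members were chosen with earlier results of these data known, these counts are a description and not a test of the list. With library totals in place of scaling factors the median over all genes moved to -0.14 and the share of calls that were higher from 49.8% to 38.5% (39.2% with upper quartile factors), and 9 members were lower as before. Wnk1 was not called without normal kidney 4 or with same-numbered libraries as a replicate block. Limma-voom with quality weights gave larger falls for Slc12a3 (-10.55), Stk39 (-4.06) and Trpm6 (-2.32) than edgeR (-9.20, -3.28 and -1.70). In bulk tissue, fewer cells of a type and less RNA per cell cannot be told apart.

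**Figure D1:**
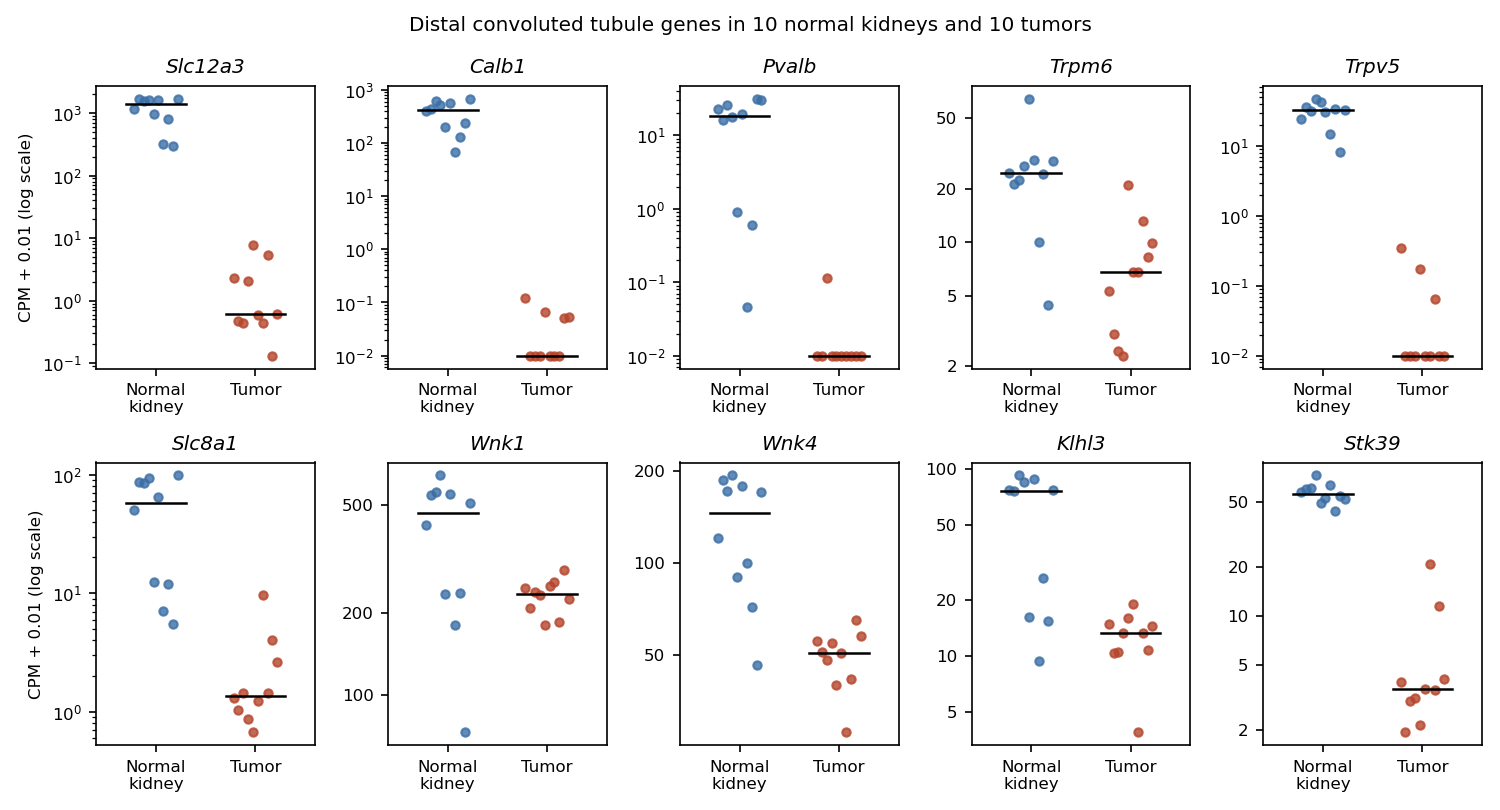
CPM plus 0.01 of each member on a log axis, with its own range in each panel, for 10 normal kidneys (blue) and 10 tumors (red). Each point is a library in order of its number and each bar the group's median. Slc12a3, Calb1, Trpv5 and Stk39 separate all 20 libraries by group, and the normal kidneys spread into a high and a low set for Slc8a1 and Klhl3.

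Slc12a3 itself fell to traces. It (ENSMUSG00000031766, chr8:94329201-94366214, + strand, mm10) encodes the thiazide-sensitive cotransporter NCC. Its level ran from 294 CPM (normal kidney 9) over a median of 1374 to 1683 CPM in the normal kidneys, and from 0.122 over a median of 0.598 to 7.75 CPM in the tumors. The means were 1170 ± 549 CPM (SD, n = 10) and 2 ± 2.56 CPM (SD, n = 10), and the groups did not overlap. Tumors 5 and 8 held the most, at 7.75 and 5.31 CPM, from 140 and 96 counts. The log2 fold change was -9.20 (SE 0.78, edgeR's quasi-likelihood test, adjusted p = 4.47e-09).

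The regulators of NCC fell by unequal amounts, with Stk39 falling most and Wnk1 least. Stk39 (ENSMUSG00000027030, chr2:68210445-68472268, - strand) ran from 43.8 to 72.8 CPM (median 55.9) in normal kidneys and from 1.94 to 21 CPM (median 3.57) in tumors. No tumor reached the lowest normal kidney, and tumors 7 and 9 were the highest, at 21 and 11.6 CPM. The log2 fold change was -3.28 (SE 0.382, adjusted p = 4.43e-07). Summed endothelial markers were 792 CPM in tumor 7 and 990 CPM in tumor 9 against 355 to 648 CPM in the other 8 tumors, and summed macrophage markers were 1009 and 578 CPM against 225 to 415 CPM. Summed fibroblast markers were 3686 and 394 CPM against 85.8 to 334 CPM. The part of these cell types in the Stk39 level of tumors 7 and 9 was not tested.

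Klhl3 (ENSMUSG00000014164, chr13:58000228-58113592, - strand) had a median of 76.7 CPM in normal kidneys (9.31 to 92.7) and of 13.2 CPM in tumors (3.88 to 18.9). Normal kidneys 5, 7 and 9, with 16.2, 9.31 and 15.3 CPM, lay within the tumors' range. The log2 fold change was -2.16 (SE 0.392, adjusted p = 0.000113).

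Wnk4 (ENSMUSG00000035112, chr11:101260567-101277409, + strand), a WNK kinase that KLHL3 binds, had a median of 146 CPM in normal kidneys (46.4 to 194) and of 50.9 CPM in tumors (28 to 65.4). Only normal kidney 9 fell within the tumors' range. Its log2 fold change was -1.43 (SE 0.226, adjusted p = 2.25e-05).

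Wnk1 (ENSMUSG00000045962, chr6:119923969-120038672, - strand) is made in most tissues, and the kidney also makes a short form of it without kinase activity, which counts per gene do not separate from the long form. Its level ran from 73 to 641 CPM in normal kidneys (median 465) and from 181 to 287 CPM in tumors (median 235). The tumors lay close together, and 6 of the 10 normal kidneys lay above all of them. Normal kidneys 5, 7 and 8 (234, 180 and 236 CPM) stood at the tumors' level, and normal kidney 9 (73 CPM) below it. The log2 fold change of -0.77 (SE 0.275) had an adjusted p of 0.0266, and without normal kidney 4 it was -0.66 with an adjusted p of 0.0566. With same-numbered libraries as a replicate block it was -0.58 and was not called, though whether a number marks a mouse is not stated.

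**Figure D2:**
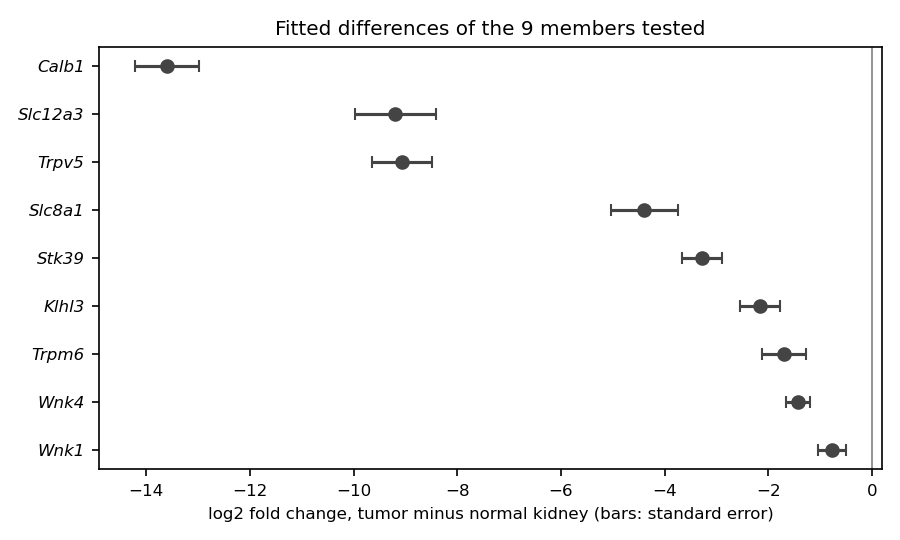
Log2 fold change (tumor minus normal kidney) of the 9 tested members, with bars of 1 standard error. Values run from -0.77 for Wnk1 to -9.20 for Slc12a3 and beyond for Calb1, whose fitted value depends on the prior count since its tumors hold almost no reads.

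Calb1, Trpv5 and Pvalb were at or near 0 in the tumors. Calb1 (ENSMUSG00000028222, chr4:15881264-15908064, + strand) had 67.5 to 675 CPM in normal kidneys (median 415). In the tumors 5 counts were seen in all, spread over 4 libraries with at most 2 in a library, and 6 tumors had 0 counts. A count of 0 allows up to 3 counts, or 0.12 to 0.17 CPM depending on the tumor. The pooled tumor level was 0.0246 CPM, 15607-fold below the normal kidneys' mean of 384 CPM (95% interval 6688 to 48066, exact Poisson on the tumor counts, counting error only). The test gave an adjusted p of 6.96e-13.

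Trpv5 (ENSMUSG00000036899, chr6:41652173-41680769, - strand), the apical calcium channel, showed the same near absence at a lower level. Normal kidneys held 8.17 to 47.2 CPM (median 32.3), and the tumors 10 counts in all, of which 6 were in tumor 1, with 7 tumors at 0. The pooled level was 0.0492 CPM, 616-fold below the normal mean of 30.3 CPM (95% interval 335 to 1284, exact Poisson, counting error only). Its adjusted p was 8.02e-11 by edgeR's quasi-likelihood test. The fitted log2 fold change moved from -9.07 to -10.07 when tumor 1 was left out.

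Slc8a1 (ENSMUSG00000054640, chr17:81388691-81649607, - strand), the basolateral exchanger, kept low but measurable counts in all 10 tumors. The normal kidneys fell into a high set of 6 (50.3 to 98.5 CPM) and a low set, with 12.4, 7.08, 11.9 and 5.47 CPM in normal kidneys 5, 7, 8 and 9. Tumors ran from 0.664 to 9.56 CPM (median 1.35), and tumor 7, the highest, passed normal kidneys 7 and 9. The fitted log2 fold change was -4.39 (SE 0.643, adjusted p = 9.20e-06). It was -5.61 (adjusted p = 4.46e-08) by limma-voom with quality weights and -5.12 (adjusted p = 2.74e-07) without normal kidney 9 and tumor 7. An antisense gene overlaps its exons in the GRCm38 annotation, and it had 0 counts in every library, while a further antisense gene there is not in the table. Whether the counting used strand is not given.

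Pvalb (ENSMUSG00000005716, chr15:78191114-78206400, - strand) did not pass the filter on low counts and has no main test. In 7 normal kidneys it ran from 16 to 31.2 CPM, whereas normal kidneys 5, 7 and 8 held 0.892, 0.0365 and 0.586 CPM, from 18, 1 and 12 counts. The tumors had 2 counts in all, both in tumor 3. The pooled tumor level of 0.00983 CPM was 1666-fold below the normal mean of 16.4 CPM (95% interval 461 to 13756, exact Poisson, counting error only). Fitted with no filter on low counts, its adjusted p was 9.78e-08 by edgeR's quasi-likelihood test.

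Trpm6 (ENSMUSG00000024727, chr19:18749983-18892510, + strand), the channel kinase of magnesium uptake, had the smallest fitted fall of the transporters and channels among the members. It ran from 4.4 to 64.3 CPM in normal kidneys (median 24.4) and from 2.28 to 21.1 CPM in tumors (median 6.75). Tumors 5 and 8, the highest with 21.1 and 13.2 CPM, were also the tumors with the most Slc12a3. Calb1, Trpv5 and Pvalb had at most 3 counts in either of these tumors. Normal kidney 5 held the most Trpm6 of all libraries, and normal kidneys 7 and 9, with 10 and 4.4 CPM, lay within the tumors' range. Its log2 fold change was -1.70 (SE 0.421, adjusted p = 0.00227).

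Divided by gene length, the order of the members differed between the groups. In normal kidneys Slc12a3 was highest at 105 ± 49.4 CPM per kilobase (SD, n = 10), followed by Calb1 at 79.1 ± 44.2 and Wnk4 at 32.2 ± 13. Slc8a1 (17.5 ± 13.3), Wnk1 (17.3 ± 8.6), Pvalb (15.7 ± 11.5), Stk39 (11.5 ± 1.65), Trpv5 (9.33 ± 3.64), Klhl3 (7.7 ± 4.75) and Trpm6 (3.93 ± 2.43) followed, and every neighbouring pair of this lower group differed by less than the larger of the pair's SDs, as did Slc12a3 and Calb1. In tumors Wnk4 (11.9 ± 2.55 CPM per kilobase) and Wnk1 (10.1 ± 1.46) led, differing by less than their spread. The gap from Wnk1 down to Klhl3 (1.72 ± 0.557) was 5.78 times the larger SD. Slc12a3 stood at 0.18 ± 0.23 CPM per kilobase in tumors, rank 7 of 10, and Calb1 was last at 0.00519 ± 0.00779.

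To place each loss beside a related gene, the log2 ratio of 6 pairs was compared within libraries, which removes the scaling between libraries. All 6 ratios were lower in tumors by a two-sided permutation test with 100000 resamples, adjusted over the 6 pairs, for which the smallest unadjusted p the resamples can give is 2.00e-05. SPAK and OSR1 (Oxsr1) are paralogous kinases that act on the same cotransporters. The log2 ratio of Stk39 to Oxsr1 averaged -0.12 ± 0.31 in normal kidneys and -4.28 ± 1.13 in tumors (SD, n = 10 each), a difference of -4.16 (permutation test, adjusted p = 0.00012), and all 10 tumors lay below every normal kidney. Oxsr1 itself was higher in tumors, with a mean of 85.3 ± 7.6 CPM against 62.1 ± 10.5 CPM (log2 fold change 0.46, edgeR adjusted p = 0.000857), although with factors from library totals its adjusted p was 0.0514. The ratio of Wnk4 to Wnk1 fell by 0.80 (from -1.45 ± 0.39 to -2.25 ± 0.36, permutation test, adjusted p = 0.00012), again with all 10 tumors below every normal kidney.

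Of the other 4 pairs, 3 set a distal gene beside a gene used more widely and 1 beside a gene of the proximal tubule. Trpm6 relative to Trpm7, the ubiquitous channel kinase, fell by 1.57 on the log2 scale (permutation test, adjusted p = 0.00084), with 7 of 10 tumors below every normal kidney. Klhl3 relative to Klhl2, its close homolog, fell by 1.79 (permutation test, adjusted p = 0.0038), and 1 of 10 tumors was below every normal kidney. Slc8a1 relative to the plasma membrane calcium pump Atp2b1 fell by 4.19 (permutation test, adjusted p = 0.00012), with 9 of 10 below. Slc12a3 relative to Slc34a1, the proximal phosphate cotransporter, fell by 8.74 (permutation test, adjusted p = 0.00012), with 10 of 10 below. Trpm7, Klhl2 and Atp2b1 did not pass the test on their own, with log2 fold changes of -0.22, -0.06 and -0.08 and adjusted p of 0.349, 0.591 and 0.753 by edgeR. Slc34a1 also did not (-1.15, adjusted p = 0.0813).

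**Figure D3:**
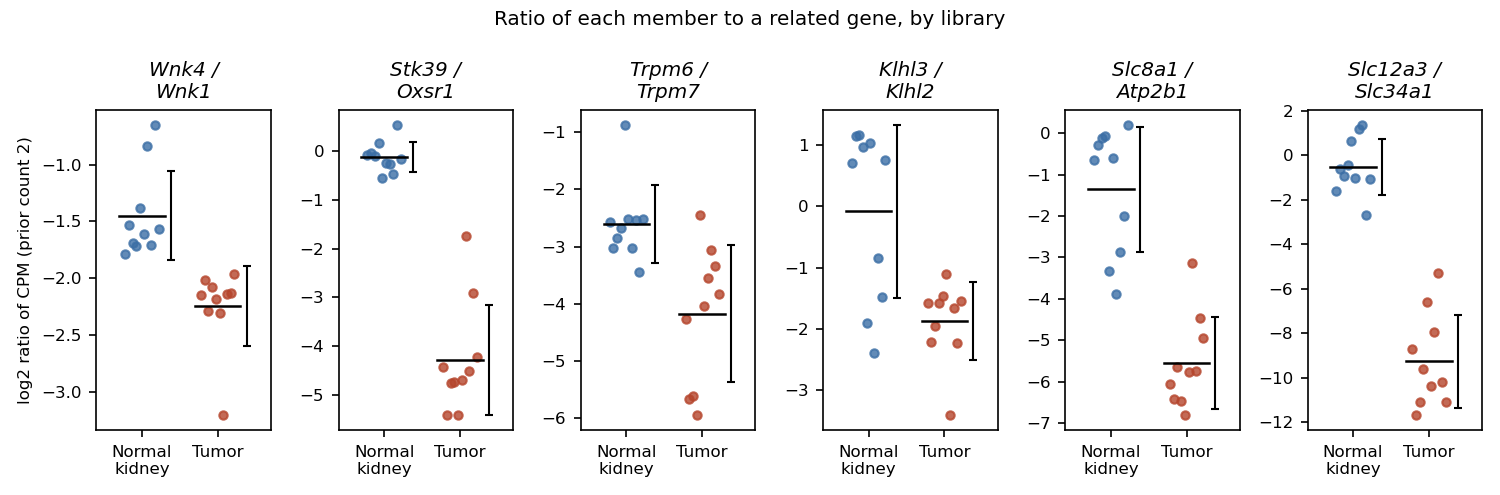
Log2 ratio of CPM of each of 6 gene pairs in 10 normal kidneys (blue) and 10 tumors (red), each panel with its own axis. Horizontal bars are group means and vertical bars 1 SD. Tumor 7 is the lowest point for Wnk4 to Wnk1 (-3.21) and for Klhl3 to Klhl2 (-3.42).

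Among the normal kidneys the members varied by unequal amounts. Stk39 changed least, with its highest normal kidney 1.66 times its lowest. The same quotient was 5.73 for Slc12a3, 10 for Calb1, 9.96 for Klhl3, 18 for Slc8a1, 14.6 for Trpm6, 8.78 for Wnk1, 5.77 for Trpv5 and 4.19 for Wnk4, and it was 853 for Pvalb, whose lowest kidney held 1 count. Normal kidneys 5, 7 and 8 were below normal kidneys 1, 2, 3, 4, 6 and 10 in Slc12a3, Wnk4, Pvalb, Slc8a1, Klhl3, Calb1 and Wnk1, while their Stk39 was 49.3, 63.8 and 43.8 CPM against 52.1 to 72.8 CPM in the other 7. In Trpm6 and Trpv5 they went apart, with 64.3, 10 and 24.3 CPM of Trpm6 and 42.4, 15 and 34.2 CPM of Trpv5. These 3 kidneys had 36832, 49349 and 28183 CPM of summed injured tubule markers, most of it Spp1, against 2052 to 4157 CPM in the other 7. Their summed proximal tubule markers were 1821, 1059 and 2459 CPM against 3446 to 8351 CPM. Single markers of a segment differed. Of the thick ascending limb Slc12a1 was at 106, 158 and 190 CPM against 805 to 1703 CPM, whereas Umod was at 4284, 3419 and 6925 CPM beside 3451 to 7910 CPM. Of the proximal tubule Slc34a1 was at 633, 140 and 310 CPM against 1885 to 3582 CPM, whereas Slc22a6 was at 148, 354 and 591 CPM beside 285 to 593 CPM. Normal kidney 9 showed another pattern, with the lowest Slc12a3, Trpm6, Trpv5, Slc8a1, Wnk1 and Wnk4 of the group and the highest Pvalb (31.2 CPM). Among all libraries normal kidney 9 also had the fewest genes with a count (19996) and the largest mitochondrial share of counts (12.2%). What part injury, the kidney region sampled or RNA quality has in these levels was not tested.

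**Figure D4:**
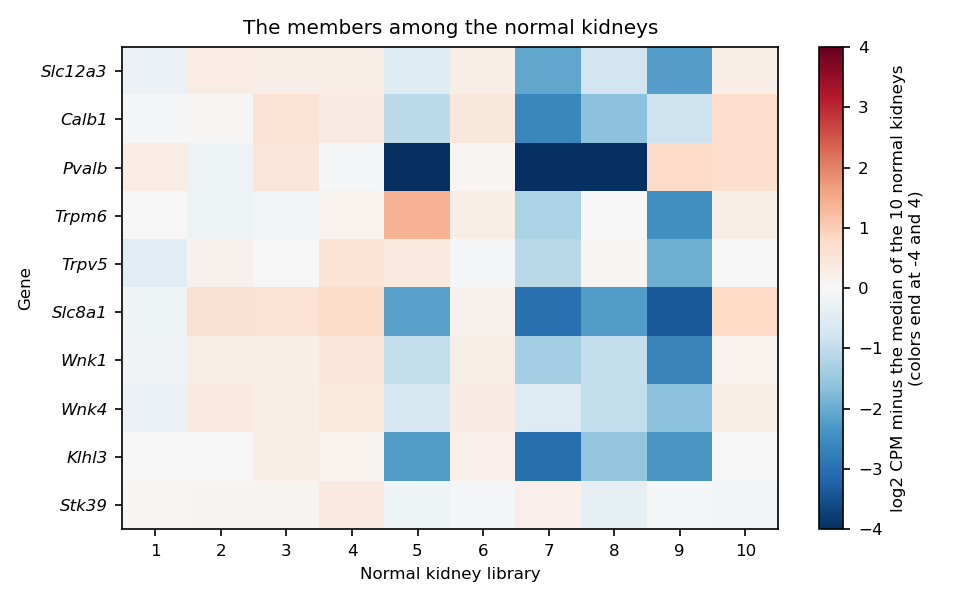
Log2 CPM of the 10 members in each normal kidney, minus the gene's median over the 10 normal kidneys, with colors ending at -4 and 4. Pvalb, Slc8a1 and Klhl3 are low in normal kidneys 5, 7 and 8, normal kidney 9 is low in most members but not in Pvalb, and Stk39 is even across all 10.

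Slc12a3 was set against 13 genes over the 10 normal kidneys, the other 9 members and Slc12a1, Aqp2, Slc34a1 and Atp6v1g3 of neighbouring segments. In 6 of the 13 relations Pearson's r of log2 CPM passed a permutation test at an adjusted p under 0.05. Because several of these genes split the kidneys into separate sets, no coefficient pooled over the 10 kidneys is given for the 13. Within normal kidneys 1, 2, 3, 4, 6 and 10 (n = 6), 0 of 13 relations passed an exact permutation test after adjustment. There Slc8a1 had r = 0.86 (rho = 0.77, exact permutation p = 0.0639 and 0.103, adjusted p = 0.343 and 0.445), which became 0.72 without normal kidneys 1 and 2, the farthest from the median of Slc12a3. Wnk4 had r = 0.96 (rho = 0.54, exact permutation p = 0.0778 and 0.297, adjusted p = 0.343 and 0.66), which became 0.25 without the same kidneys and so rested on them. The 5 protein-coding genes outside the list whose log2 CPM followed Slc12a3 most closely over all 10 normal kidneys, of 13266 with a mean of at least 1 CPM, were Kit and Zfp329 (both r = 0.985), Msl2 (r = 0.982), Erbb2 (r = 0.981) and Adcy6 (r = 0.979). These coefficients are pooled over the same split of the kidneys and share their libraries, so they describe likeness and were not tested. In tumors against normal kidneys, Msl2 had a log2 fold change of -0.63 (edgeR adjusted p = 0.000135) and Zfp329 of -0.32 (adjusted p = 0.352). Adcy6, an adenylyl cyclase, and Erbb2, a receptor tyrosine kinase, fell by 1.06 and 0.60 on the log2 scale (edgeR adjusted p = 4.11e-06 and 0.0244), and Kit, the stem cell factor receptor, had -0.71 (adjusted p = 0.116).

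Most genes of 3 lists of related genes fell, while the WNK network held falls and rises at about the shares of all genes. Of 48 genes in 4 lists drawn up around the members, all passed the filter, and 31 were lower, 5 were higher and 12 did not pass the test, where 23.8% of all genes tested were lower and 23.6% higher. The lists were drawn up with earlier results of these data known, so these counts are a description and not a test of the lists. In the list of salt and magnesium handling, 9 of 13 were lower and 1 higher, with a median log2 fold change of -0.92. Among its largest falls were Bsnd, which encodes barttin (-9.98, adjusted p = 1.34e-10), Egf, whose precursor is made in this segment (-9.32, adjusted p = 2.43e-09), and the phosphatase inhibitor Ppp1r1a (-9.00, adjusted p = 1.93e-09). The magnesium transporter Slc41a3 rose, from a mean of 5.84 ± 2.07 to 18.4 ± 4.91 CPM (1.65, adjusted p = 2.98e-07), and every tumor was above every normal kidney.

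Of the calcium and sodium list, 11 of 12 were lower and 0 higher (median -5.57), where 23.8% of all genes tested were lower and 23.6% higher. The largest falls were the kallikrein Klk1 of the connecting tubule (-11.02, adjusted p = 2.09e-11), the calcium-sensing receptor Casr (-9.21, adjusted p = 1.11e-10) and the epithelial sodium channel subunits Scnn1b and Scnn1g (-8.42 and -7.94, adjusted p = 1.57e-10 and 1.66e-08). Most of the tumor counts of both subunits were in tumor 7, and without it the values were -9.54 and -10.11. Members of this list higher at an unadjusted p under 0.05 numbered 0, and DESeq2 and limma-voom called 0 higher.

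In the WNK network list, 3 of 14 were lower and 4 higher, near the 23.8% and 23.6% of all genes tested, with a median log2 fold change of 0.02. The test was not passed by 7, Cul3 among them (a tumor mean of 119 ± 8.03 CPM against 120 ± 13.8 CPM). Slc12a1 fell by 11.26 on the log2 scale (adjusted p = 1.17e-09), and the ubiquitin ligase Nedd4l and the SPAK scaffold Cab39l by 1.06 and 1.02 (adjusted p = 1.26e-05 and 7.97e-07). The kinases Wnk3 and Wnk2 rose, while Wnk1 and Wnk4 fell. Wnk3 went from 1.11 ± 0.416 to 6.9 ± 2.93 CPM (2.63, adjusted p = 2.75e-07), with all 10 tumors above every normal kidney, and Wnk2 from 2.68 ± 1.48 to 11.3 ± 5.06 CPM (2.06, adjusted p = 1.09e-05), with 8 of 10 above. Both stayed far below Wnk1 in CPM. With library totals in place of scaling factors the list held 3 genes higher, Oxsr1 no longer among them.

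**Figure D5:**
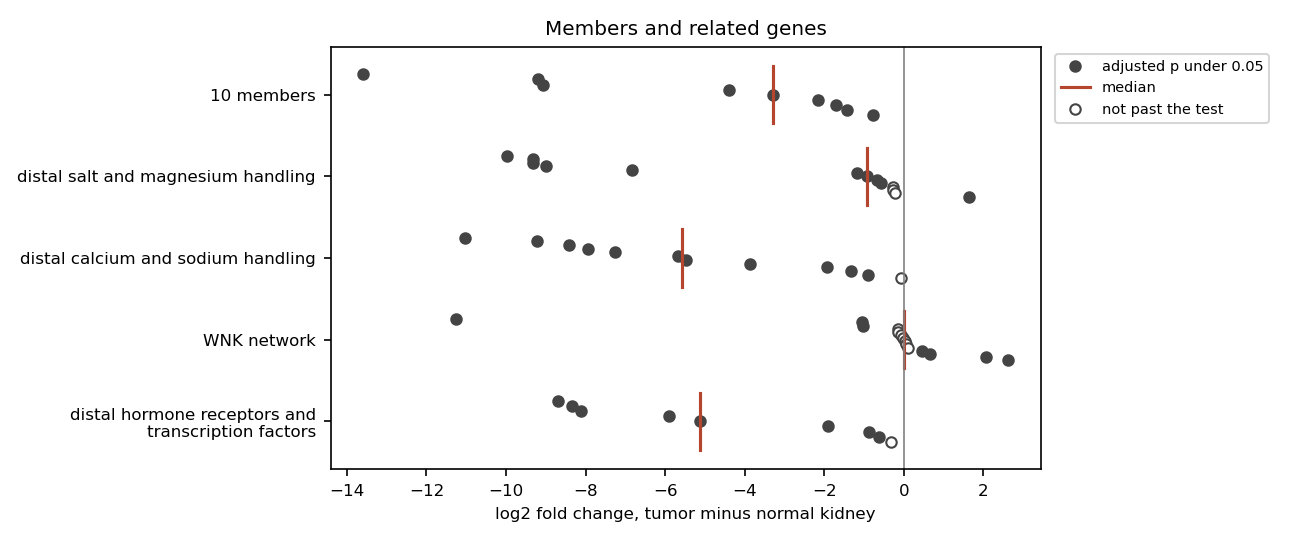
Log2 fold change (tumor minus normal kidney) of the tested members and of 4 lists of related genes. Filled points passed an adjusted p under 0.05, open points did not, and red bars are medians, which run from -5.57 for calcium and sodium handling to 0.02 for the WNK network.

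Transcription factors and hormone receptors of the distal nephron were lower in 8 of 9 cases and higher in 0 (median -5.11), and Pcbd1, a transcriptional cofactor, did not pass the test (-0.33, adjusted p = 0.368). Of all genes tested, 23.8% were lower and 23.6% higher. The count of higher genes in this list was also 0 at an unadjusted p under 0.05 and with DESeq2 and limma-voom. Tfap2b, a factor of distal tubule development, fell by 8.70 (adjusted p = 1.13e-10), Esrrb by 8.34 (adjusted p = 1.25e-10), Sall3 by 8.12 (adjusted p = 3.56e-09) and Hsd11b2, which protects the mineralocorticoid receptor from glucocorticoids, by 5.90 (adjusted p = 1.17e-06). Tumor counts of these factors were few, and leaving out tumor 7 gave -9.33 for Tfap2b, and leaving out tumor 1 gave -9.19 for Esrrb and -8.99 for Sall3.

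The starts of the members were read for the letters that Tfap2b and Esrrb, both nearly absent from tumors, are known to bind. RefSeq windows of GRCm38.p6, from 250 bases before to 50 after a gene's start, were at hand for 9 of the 10 members (10 windows). GCCNNNGGC, the palindrome of AP-2 factors, occurred in 7 of the 10 windows, belonging to 6 members, and in 16.6% of all 32851 windows. AAGGTCA, for estrogen-related receptors, was in 0 of 10 (4.72% of all, both strands). A match is a run of letters and not a shown binding site. Whether the low level of these factors has a part in the members' fall was not tested. The windows of Slc12a3, Stk39 and Trpm6, which span a large, an intermediate and a small fall, are printed 5′ to 3′ on the gene's strand with the AP-2 letters in capitals.
Slc12a3 (chr8:94328958-94329257, + strand): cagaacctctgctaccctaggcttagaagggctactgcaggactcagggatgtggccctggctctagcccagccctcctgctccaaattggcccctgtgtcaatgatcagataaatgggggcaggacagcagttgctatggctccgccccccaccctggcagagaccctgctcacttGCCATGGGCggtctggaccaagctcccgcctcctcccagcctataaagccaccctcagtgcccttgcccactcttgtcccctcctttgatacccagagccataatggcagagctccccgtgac
Stk39 (chr2:68471932-68472231, - strand): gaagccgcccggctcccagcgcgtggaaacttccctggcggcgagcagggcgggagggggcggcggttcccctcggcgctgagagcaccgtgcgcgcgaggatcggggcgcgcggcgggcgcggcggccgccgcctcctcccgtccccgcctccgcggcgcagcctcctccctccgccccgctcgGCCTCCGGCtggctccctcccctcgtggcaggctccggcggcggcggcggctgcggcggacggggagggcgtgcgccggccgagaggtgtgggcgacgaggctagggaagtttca
Trpm6 (chr19:18749480-18749779, + strand): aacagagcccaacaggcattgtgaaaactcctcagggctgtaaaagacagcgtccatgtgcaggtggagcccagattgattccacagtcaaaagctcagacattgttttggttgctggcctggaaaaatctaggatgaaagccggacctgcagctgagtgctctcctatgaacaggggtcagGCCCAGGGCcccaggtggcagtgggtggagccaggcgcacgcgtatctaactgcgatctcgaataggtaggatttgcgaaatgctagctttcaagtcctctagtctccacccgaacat
In each of these 3 windows the letters stand once, beginning 73, 65 and 68 bases before the annotated start of Slc12a3, Stk39 and Trpm6.

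Most markers of neighbouring segments of the nephron were lower too, but not most of those of the proximal tubule. Markers were lower in 4 of 5 for the thick ascending limb, 4 of 4 tested for principal cells, 5 of 5 for intercalated cells and 4 of 5 for podocytes, and 0 were higher in any of these lists. Of all genes tested, 23.8% were lower and 23.6% higher. Summed principal cell markers ran from 0.105 to 25.5 CPM in tumors and from 161 to 1132 CPM in normal kidneys, and Avpr2 was at or near 0 in all libraries. Summed thick ascending limb markers ran from 21.3 to 161 CPM in tumors, of which Cldn10 gave most, and from 3682 to 9437 CPM in normal kidneys. Intercalated cell markers summed to 1.72 to 10.8 CPM in tumors against 119 to 419 CPM, and podocyte markers to 135 to 272 CPM against 121 to 982 CPM. Of 6 proximal tubule markers 2 were lower and 0 higher, and their sums overlapped, at 800 to 7991 CPM in tumors and 1059 to 8351 CPM in normal kidneys. Without normal kidneys 5, 7, 8 and 9 the normal sums ran from 6001 to 8351 CPM, against a median of 4572 CPM over the tumors. Endothelial markers were higher in 1 of 5 and lower in 0, macrophage markers higher in 3 of 5 and lower in 0, fibroblast markers lower in 1 of 5 and higher in 0, and injured tubule markers lower in 1 and higher in 1 of 5. A count of 1 in a list of 5 is near the shares of all genes. Injured tubule markers summed to 8633 to 36955 CPM in tumors and 2052 to 49349 CPM in normal kidneys. In the 7 normal kidneys other than 5, 7 and 8 the sums were 2052 to 4157 CPM, below every tumor. Havcr1, Krt20, Spp1 and Vcam1 were each higher in every tumor than in these 7, whereas Lcn2 was not (0.474 to 165 CPM against 9.77 to 232 CPM). Skeletal muscle markers were higher in 2 of 3 tested of 7 and summed to 5.59 to 27.4 CPM in tumors against 0.843 to 2.89 CPM in normal kidneys. The defining muscle genes Ckm and Myh4 stayed under 1 CPM in every library, and most of the sum in tumors was Acta1 and Actn3.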

How the data were processed

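Tumor and normal kidney tissue was frozen and pulverized, RNA was extracted with Trizol, and poly-A libraries were sequenced by a company. The authors deposited whole-number counts per gene for 10 tumors and 10 normal kidneys without normalization. The build is mm10 per the submitters' processing notes, and the aligner, the counting tool and the use of strand are not given in the sources used here. Groups and numbers were taken from the labels.

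Counts were scaled with TMM factors and tested with edgeR 4.0.16 (R 4.3.3) by the quasi-likelihood test without covariate. A count minimum of 10 in edgeR's filter left 15354 genes, over all of which Benjamini-Hochberg adjustment was made. CPM used the same factors, and log2 CPM a prior count of 2. Ratios and correlations were tested by permutation with 100000 resamples (scipy 1.17.1), or over all arrangements where called exact. Alternatives used DESeq2 1.42.0, limma 3.58.1, other factors, no filter, edgeR's test against a log2 fold change of 1, replicate blocks and libraries left out. The fits were tested on simulated data.

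Members, gene lists, motifs and rules were chosen with earlier results of these data known. All members were named, with the 4 largest falls and 4 largest rises past the test in each list, the partner of each ratio and the 5 genes most like Slc12a3. Some genes that this rule covers are not reported here. Genes named for cell types come from marker lists. The mice are separate animals, but an interval from counts covers counting error alone and not the spread between animals. PCR copies of 1 molecule cannot be recognized here, so the counting error itself may be larger than the interval shows.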

Additional observations from a re-analysis of the deposited data

Results flagged for a closer look

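Of 32 sets of 10 libraries, each member and each ratio in each group, 5 held a library far from the rest by Dixon's test, which chance does in about 1 of 20 sets. Tumor 7 was lowest in Klhl3 at a log2 CPM of 1.99 (91 counts), against 3.38 to 4.25 in the other tumors. The same tumor was lowest in the log2 ratio of Wnk4 to Wnk1 (-3.21, others -2.31 to -1.96) and in that of Klhl3 to Klhl2 (-3.42, others -2.23 to -1.10). Normal kidney 5 was highest in the log2 ratio of Trpm6 to Trpm7 (-0.87, others -3.44 to -2.51). Tumor 3 was highest in Pvalb at a log2 CPM of -2.28, which is 2 counts where the other tumors had 0. With the other tumors tied, any such count is flagged by construction. The sets also share genes and libraries, so the 5 are not independent and the rate of 1 in 20 is only a rough guide.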

How the results depend on the processing

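Over 495 comparisons of a result with an alternative, 488 kept their direction and side of the threshold, 5 lost the call, 2 counts moved and 0 turned. Members lower in tumors numbered 6 when the test was made against a log2 fold change of 1 (all genes called fell from 7292 to 1991), where Trpm6 (-1.70, adjusted p = 0.103), Wnk1 (-0.77, adjusted p = 1) and Wnk4 (-1.43, adjusted p = 0.0623) were not called, since that test asks for a larger change. With a library left out, members lower numbered 8 to 10, and Wnk1 ranged from -0.90 to -0.66 and lost its call without normal kidney 4. The 10 include Pvalb, which passed the filter only in some of these fits and has no main value to compare. The count of 6 relations with Slc12a3 was 9 without normal kidney 9 and 7 with library totals, and became 0 without normal kidneys 5, 7, 8 and 9, an alternative with 6 libraries chosen after seeing the data.

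With same-numbered libraries as a replicate block, all genes called were 7865, Wnk1 stood at -0.58 (adjusted p = 0.131), and no other member or ratio changed its call. Whether a number marks a mouse is not stated. Deviations of same-numbered libraries correlated at -0.14 to 0.38, over 0.1 in 9 of 10 pairs, and 8 of 10 tumors correlated best with their own number, a hint from the data and not the design. Depth limits Calb1, Trpv5 and Pvalb in tumors, where a library with 0 counts allows up to 0.17 CPM.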
